A study of Mus musculus with 44 samples.

Results

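The PCP libraries are the wild-type (WT) RNA of sorted pro-chondrogenic progenitors, a skeletal population of the mouse long bone, taken at postnatal day 3. They were chosen by sample: 2 libraries of RNA pulled down with an antibody against N6-methyladenosine (m6A), called IP, and 2 libraries of the matching input RNA, which makes 4 of 44 libraries in the series. The mice had a C57Bl6 background and no treatment, and the labels give their genotype as wild type. Where the study introduces its Mettl3 knockout, it uses WT for mice with floxed Mettl3 alleles and no Cre. It does not say whether the mice of these sorted populations carried those alleles. The other WT libraries, 28 in all, hold IP and input of SSC, pBCSP, BCSP, THY, BLSP, 6C3 and HEC from mice of the same age and genotype label. Cells of a sort were divided between the IP and the RNA-seq library, so IP and input were paired by replicate number. Cells positive for CD45, Ter119 or Tie2 were removed before the populations were gated on CD51, Thy1, 6C3, CD105 and CD200. Bones came from several independent litters and from mice of either sex. Whether litters were pooled in a library is not stated, and the labels do not say how many animals a library holds. The p-values measure the spread between these libraries.

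m6A is the most common internal mark of messenger RNA. A complex around the methyltransferase METTL3 places it on adenosines in short sequence contexts, often near stop codons and in long exons, and reader proteins then change how long the RNA lasts and how it is translated. In SLIM-seq the RNA is not fragmented before the antibody step, so whole transcripts are pulled down. The count of a gene in the IP therefore gives no position of a mark, and each IP ratio stands against the other genes in those libraries and is not a share of methylated molecules.

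IP libraries held 23158955 and 19543526 counts on named genes, and input libraries 44046651 and 43243983. Both IP libraries held more ribosomal and mitochondrial RNA than their inputs: mitochondrial genes took 9.10% and 5.18% of the IP counts against 1.07% and 0.631% of the input counts. The log2 ratios of IP to input of the 2 pairs correlated at r = 0.529 over 18564 genes, which share libraries and are not independent replicates. Across the same genes log2 CPM (the count scaled to the library total) correlated at 0.881 between the IP libraries and 0.959 between the input libraries.

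The markers of the label were checked in the input. All 10 chondrocyte markers were detected, and Col2a1 stood at 14376 and 17009 CPM and Sox9 at 1596 and 2301 CPM. Summed over the list they made 2.08% and 2.49% of the input counts, and PCP ranked between 4 and 7 (1 is highest) of the 8 populations for each of them. Osteoblast markers made 10.7% and 9.60% of the counts, most of them from Col1a1 at 104495 and 92845 CPM. All 4 endothelial markers (Kdr, Cdh5, Pecam1 and Tek, which codes for Tie2) were highest in PCP of the 8 populations, at a sum of 0.00865% and 0.00846% of the input counts against 0.000104% to 0.00177% elsewhere. Of 4 stromal markers Cxcl12, Kitl and Lepr were highest in PCP, and the list summed to 0.273% and 0.137% against 0.00661% to 0.0625%. Red cell markers made 0.00817% and 0.00517% and blood markers 0.000631% and 0.00160%, with none of either list at 0 in an input library. In bulk libraries fewer cells of a type and less RNA per cell cannot be told apart, and no cell type beyond the label is assigned here.

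Sequence stretches are shown for 3 enriched mRNAs (2 abundant ones and the long Hnrnpd) and 3 depleted mRNAs because both kinds hold the letters GGACT, a context in which the methyltransferase complex is known to work. Each line gives 25 bases of coding sequence from the GENCODE vM21 transcript (GRCm38), 5′ to 3′. They surround the match closest to the stop codon that lies within an exon, with this match in capitals. The stretch of Tubb5 holds a further GGACT in lower case. A match is a description of the letters, and the counts say nothing of a mark at these positions.
Pam (chr1:97834462-97834486, minus strand, exon 22 of 26): tctgaagatgGGACTgtgtacattg
Tubb5 (chr17:35836207-35836231, minus strand, exon 3 of 4): ctgggactatGGACTccgttcgctc
Hnrnpd (chr5:99967322-99967346, minus strand, exon 3 of 9): aagatctgaaGGACTacttttccaa
Serpinh1 (chr7:99346396-99346420, minus strand, exon 5 of 5): acatctggcaGGACTgggcctgacc
Thbs2 (chr17:14670829-14670853, minus strand, exon 19 of 22): ttgggtctgtGGACTtcagtggcac
Pkm (chr9:59672027-59672051, plus strand, exon 8 of 11): cagccaagggGGACTaccctctgga

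The question of the comparison is which transcripts the antibody carried over from PCP RNA and which it left behind. Ribosomal RNA, mitochondrial RNA, ribosomal protein mRNAs and the short mRNAs of the respiratory chain led the enriched side. The depleted side held, among its abundant mRNAs, Serpinh1, Junb, Mmp2, Thbs2 and several collagens, and it held enzymes of glycolysis. With enriched meaning a log2 fold change above 1 and an unadjusted p under 0.05 (edgeR quasi-likelihood test, replicate pairs as blocks), 1950 of 18564 genes tested were enriched, 10.5%. In the other direction, 3104 genes were depleted, 16.7%, with a log2 fold change below -1. At a Benjamini-Hochberg adjusted p under 0.05 the counts were 1498 (8.07%) and 2658 (14.3%). Among the 15037 genes with at least 20 counts in each input, 1586 (10.5%) were enriched and 3094 (20.6%) depleted. Both pairs gave the direction of the fit in 1948 of the enriched and in all 3104 depleted genes. As these genes were called from the same 2 pairs, that agreement is largely set by the selection and is not replication. The median log2 ratio of all genes tested was -0.12. In a fit over the WT libraries without PCP replicate 1, 1088 genes were enriched, and without replicate 2 it was 1093, against 2202 and 2691 depleted.

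Among named genes with at least 20 counts in each input, the most enriched was Rn18s-rs5. Its symbol stands for a sequence related to the 18S RNA of the small ribosomal subunit. It held 27081 and 11347 CPM in the IP libraries against 910 and 543 CPM in the input, and its IP values lay far above both inputs. Its log2 ratio was 4.64 ± 0.13 (standard error, adjusted p = 1.6e-07), which is a 24.9-fold enrichment. The mitochondrial ribosomal RNAs were also among the highest. mt-Rnr1 stood at 5888 and 2439 CPM in the IP and at 366 and 162 CPM in the input, a log2 ratio of 3.96 ± 0.10. mt-Rnr2 reached 50957 and 24021 CPM against 3859 and 2125 CPM, a log2 ratio of 3.61 ± 0.08 (adjusted p = 5.6e-08). For both genes the 2 IP libraries lay above both inputs.

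Each of the 13 mRNAs of the mitochondrial genome was enriched, with a median log2 ratio of 3.06 and pair medians of 3.11 and 2.81. These mRNAs code for core subunits of the respiratory chain. mt-Nd6, the one mRNA of the light strand, had 1222 and 779 CPM in the IP and 73.4 and 65.2 CPM in the input. Its log2 ratio of 3.82 ± 0.16 was the highest of the list. mt-Nd2 had 2723 and 1564 CPM against 231 and 151 CPM, a log2 ratio of 3.47 ± 0.12. mt-Nd4 had 2635 and 1810 CPM against 308 and 211 CPM, and its pair ratios of 3.09 and 3.10 were nearly equal. mt-Nd3 and mt-Nd4l rested on few input counts, between 9 and 22 per library, and 98.1% and 98.9% of their 25-base words also stand in 1 predicted gene each. In the 7 other WT populations the median of these mRNAs ran from 1.57 to 4.07. None of them differed between PCP and the other populations at an adjusted p under 0.05.

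Among the 12 highest ratios of named genes with at least 20 counts in each input, 5 were neither ribosomal RNAs nor members of a list. Lars2, the leucyl-tRNA synthetase of mitochondria, had 2369 and 844 CPM in the IP and 146 and 119 CPM in the input, a log2 ratio of 3.42 ± 0.25. Hsd17b11, a lipid droplet dehydrogenase, had 21.7 and 11.5 CPM against 3.09 and 0.731 CPM (3.35 ± 0.45). Pirb, an inhibitory receptor of myeloid and B cells, had 160 and 164 IP counts against 31 and 34 (3.36 ± 0.58), and 47.9% of its 25-base words stand in other transcripts. All of them had both IP values above both inputs. The mitochondrial tRNA gene mt-Tp (3.52 ± 0.38) and Mir703 (3.14 ± 0.58) rested on 32 to 108 input counts, and 72.9% of the words of Mir703 are shared.

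Cytosolic ribosomal protein mRNAs moved together. These mRNAs carry a 5′ oligopyrimidine tract through which growth signals set their translation. Of 83 tested, 78 were enriched and none was depleted, against 10.5% and 16.7% of all genes, and their median log2 ratio was 2.16 (pair medians 2.22 and 2.07). Rpl39, a small protein of the peptide exit tunnel, had 259 and 217 CPM in the IP and 29.2 and 22.1 CPM in the input, a log2 ratio of 3.22 ± 0.16. Rps29 stood at 444 and 351 CPM against 54.8 and 51.3 CPM, and Rps27 at 406 and 280 CPM against 56.2 and 37.5 CPM. For these 3 genes both IP libraries lay above both inputs. Among the members that did not pass, Rpl4 gave 0.67, Rpl24 1.17, Rpl36al 0.30 and Rps10 -0.86, and these last 3 had 111 counts or fewer in each library. All of the list's mRNAs together made 3.33% and 2.98% of the IP counts and 0.819% and 0.750% of the input counts. Near copies limit the values of single genes: 98.8% of the 25-base words of Rps27 and 22.6% of those of Rpl39 stand in other transcripts as well.

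Nuclear-encoded subunits of oxidative phosphorylation showed 53 enriched and 3 depleted members of 79, with a median of 1.56. Ndufa3, an accessory subunit of complex I, had 338 and 414 CPM in the IP against 61.4 and 68.2 CPM in the input, a log2 ratio of 2.53 ± 0.14. Cox7a2 of complex IV had 466 and 454 CPM against 88.2 and 86.2 CPM, and its pair ratios were both 2.40. Atp5k and Atp5e of the ATP synthase had log2 ratios of 2.52 and 2.40. The depleted members were Sdha, the flavoprotein of complex II, at -1.79, Uqcrc1 of complex III at -1.41 and Ndufv1 of complex I at -1.10.

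Transcript length moved with these groups. Among protein-coding genes with at least 20 counts in each input library and a GENCODE transcript under 1000 bases, 380 of 700 were enriched and 11 depleted, with a median log2 ratio of 1.18. Ribosomal proteins in that length class had a median of 2.21 (n = 54), respiratory subunits 1.90 (n = 45) and the other genes 1.08 (n = 601). Ribosomal proteins of 1000 bases or more kept a median of 1.91, with 27 of 29 enriched. Respiratory subunits of 1000 bases or more had 0.58, with 13 of 33 enriched. Other coding transcripts between 1000 and 5000 bases had a median of -0.56, and those of 5000 bases or more 0.08.

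Over 13136 protein-coding genes the relation to length was therefore not of one direction. Over 5 bins of equal size, from short to long, the median log2 ratio was 0.21, -0.74, -0.77, -0.56 and 0.08. The shortest bin had 21.2% of genes enriched and 7.69% depleted, and the middle bin had 4.83% enriched and 33.7% depleted. GC content gave a steady fall, from 0.03 in the lowest of 5 GC bins to -0.94 in the highest, with 38.4% of the latter depleted. Spearman's rho across genes was -0.275 for GC and -0.022 for length (genes share libraries and base composition, so no p is given). With 4 bins of length and 4 of GC, the median fell from the lowest to the highest GC bin within each length bin. In transcripts of 1973 to 3059 bases it went from -0.18 to -1.35, and 55.4% of the GC-rich ones were depleted. In the longest bin, 4571 bases and up, it went from 0.16 to -0.44. Each of the 2 pairs showed the same fall.

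**Figure D1:**
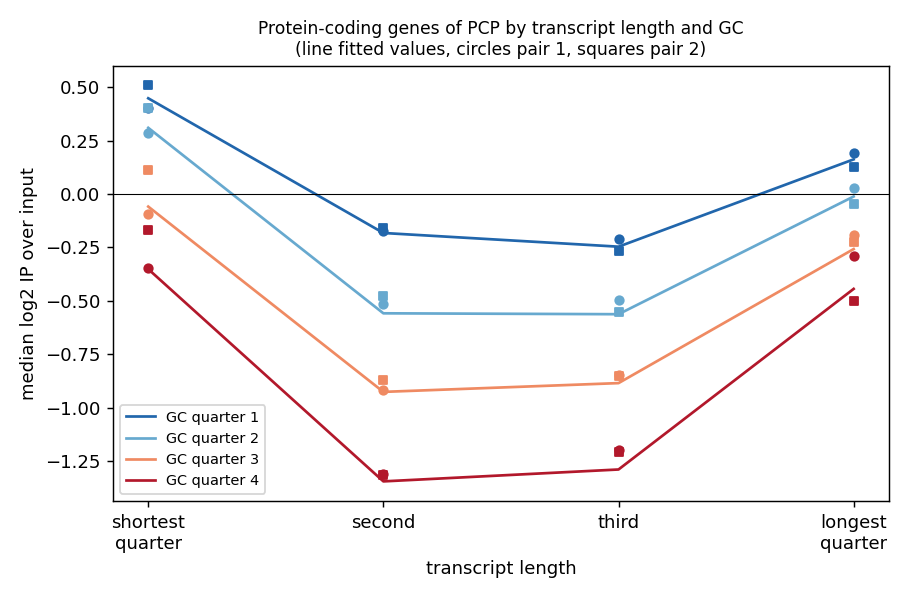
Median log2 IP over input (vertical axis) of 13136 protein-coding genes with at least 20 counts in each PCP input library, by 4 bins of transcript length (horizontal axis) and 4 of GC content (colours). Lines join fitted medians, circles and squares give pair 1 and pair 2. The medians dip in the middle bins of length, and the highest GC bin lies lowest throughout, at -1.35 in the second bin of length.

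The density of GGACT in the transcript did not rise with the ratio. Searched on the sense strand, GGACT occurred in 80.9% of the 1250 enriched coding transcripts of this class and in 95.9% of the 2932 depleted ones, against 92.6% of all 13136 and 87.4% of the 20905 coding genes in the table. Per 1000 bases the medians were 0.992 in enriched, 1.15 in depleted and 1.06 in all of the 13136. Across genes rho was -0.101 for GGACT per 1000 bases. In 16 classes of length and GC it ran from -0.136 to 0.049 and was positive in 5. For the longest internal exon, rho was 0.090 to 0.189 in the 4 classes of the longest transcripts and between -0.212 and -0.184 in the 4 classes of the shortest.

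Among long transcripts the most enriched were chosen by a rule set after the values were seen, as the 12 highest of at least 5000 bases. They included Hnrnpd, an RNA-binding protein that acts on AU-rich elements, at 83.8 and 105 CPM in the IP and 12.7 and 12.9 CPM in the input (log2 ratio 2.87 ± 0.20, adjusted p = 1.6e-05). Nufip2, a partner of FMRP, had 73.1 and 53.4 CPM against 9.93 and 10.2 CPM. Larp1, which binds the oligopyrimidine mRNAs, had 24.6 and 24.1 CPM against 2.86 and 5.50 CPM. Ptgfrn, a surface protein of the immunoglobulin family, had 147 and 120 CPM against 24.1 and 21.6 CPM. Usf3, Brpf3, Adgrl1, Nlgn2, Trim56, Myom2 and Fzd8 were also among them, between 2.50 and 3.07. Rps15a met the length limit through its annotated transcript of 5179 bases and belongs with the ribosomal proteins.

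The most abundant enriched mRNAs outside the groups above were taken as the 12 of highest input CPM, a rule also set after the values were seen. Pam, the enzyme that amidates peptides, had 5208 and 3896 CPM in the IP and 1188 and 980 CPM in the input, a log2 ratio of 2.06 ± 0.09. Lgals1, a galectin of mesenchymal cells, had 2269 and 3121 CPM against 532 and 762 CPM, and its IP values did not overlap its inputs. The β-tubulin Tubb5 was at 3425 and 3925 CPM against 915 and 1139 CPM, and vimentin (Vim) at 2417 and 2072 CPM against 912 and 849 CPM. Kdm6b, an H3K27 demethylase, had 1188 and 2557 CPM against 447 and 788 CPM, a log2 ratio of 1.55 ± 0.11. The collagen Col12a1 had 1580 and 1387 CPM against 596 and 609 CPM. Slc39a1, Eif1, Prdx1, Actb, Cst3 and Aspn had log2 ratios between 1.04 and 1.64. Those of Actb (1.06), Cst3 (1.05) and Aspn (1.04) lay just above the limit, and 45.1% of the 25-base words of Actb stand in other transcripts.

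**Figure D2:**
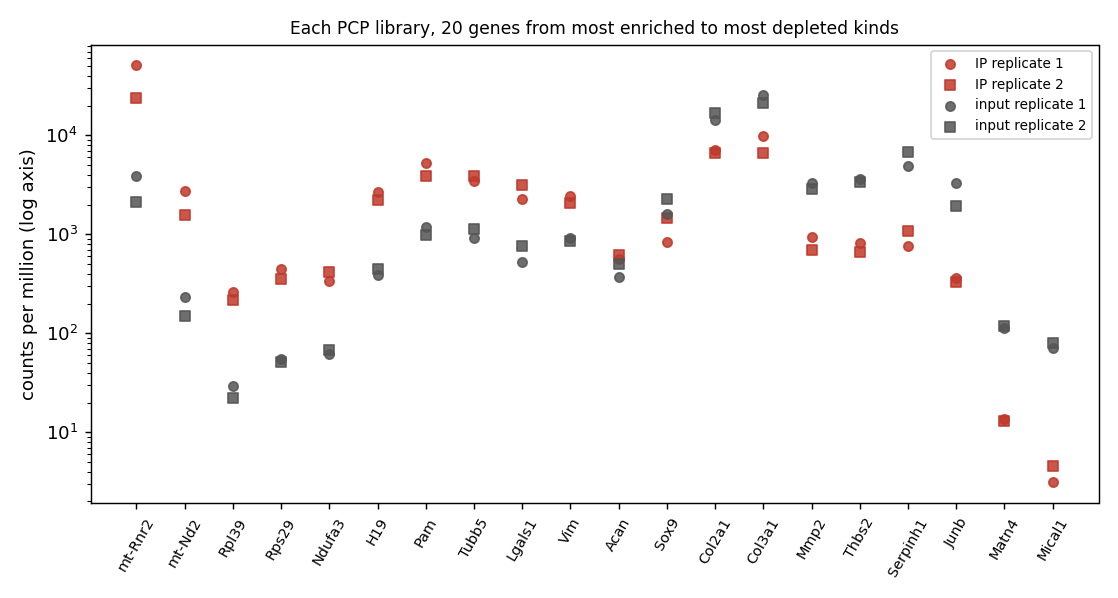
CPM on a log axis (vertical) of 20 named genes in each PCP library, red for IP and grey for input, circles for replicate 1 and squares for replicate 2. From mt-Rnr2 to Vim the IP points lie above both inputs, and from Col2a1 to Mical1 below them. Acan and Sox9 lie between, with log2 ratios of 0.44 and -0.80.

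On the depleted side Serpinh1, the collagen chaperone HSP47, lies on chromosome 7 (chr7:99345376-99353239, GRCm38). It held 4882 and 6872 CPM in the input and 768 and 1074 CPM in the IP, and its pair ratios were -2.67 and -2.68 (standard error 0.09, adjusted p = 5.3e-07). Thbs2, a matricellular thrombospondin, fell from 3626 and 3353 CPM to 810 and 671 CPM, a log2 ratio of -2.24 ± 0.10. Mmp2, gelatinase A, had 3337 and 2844 CPM in the input and 937 and 701 CPM in the IP, a log2 ratio of -1.93. Col3a1 had 25419 and 21030 CPM against 9983 and 6665 CPM, a log2 ratio of -1.50 ± 0.08. In each of these genes both IP values lay below both inputs. Fmod, Lmna, Col6a1, Tnc, Rcan1 and C1qtnf3 had log2 ratios between -1.39 and -1.01, and C1qtnf3 at -1.01 stood at the limit.

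Some depleted mRNAs kept very few IP counts. Taking genes with at least 20 counts in every library, a rule added after the values were seen, Mical1, which oxidises actin, was lowest. It had 71.0 and 80.5 CPM in the input and 3.14 and 4.54 CPM in the IP, a log2 ratio of -4.32 ± 0.25 (adjusted p = 6.7e-06). Kctd10, an adaptor of a cullin ligase, had 175 and 165 CPM against 9.10 and 12.8 CPM, a log2 ratio of -3.98 ± 0.21. Ngfr, the low-affinity nerve growth factor receptor and a mark of mesenchymal progenitors, had 56.8 and 170 CPM against 5.41 and 14.1 CPM, and its pair ratios of -3.38 and -3.59 were close although its input differed between replicates. Chpf2, which takes part in chondroitin synthesis, was at -3.56 ± 0.23. Pigt, of the GPI transamidase, was at -3.46 ± 0.21, and Anxa11 at -3.35 ± 0.29. Ap2a1, with pair ratios of -5.08 and -2.77, was less even.

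The 12 lowest fitted ratios by the fixed rule belonged to genes with no count in either IP library, so their fold is given as a bound against 3 counts in each IP library (0.136 and 0.146 CPM), which covers counting error only. Sync, a linker of intermediate filaments, had 190 and 138 input counts and was at least 26.5-fold lower in the IP. Asb2, with 175 and 106 input counts, was at least 22.7-fold lower, and Fam110c at least 21.4-fold lower. Thtpa was at least 19.9-fold lower, although 56.5% of its 25-base words stand in other transcripts. Ggt1, Mpst, Nhlrc1, Gpr17, Iqck, Dclk3, Actn3 and Angptl6 had bounds between 9.77 and 15.1. In all, 50 of 15037 genes with at least 20 counts in each input had no count in either IP library, 535 had none in IP 1 and 149 had none in IP 2. Of the depleted genes, 2727 had at least 20 counts in every library.

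**Figure D3:**
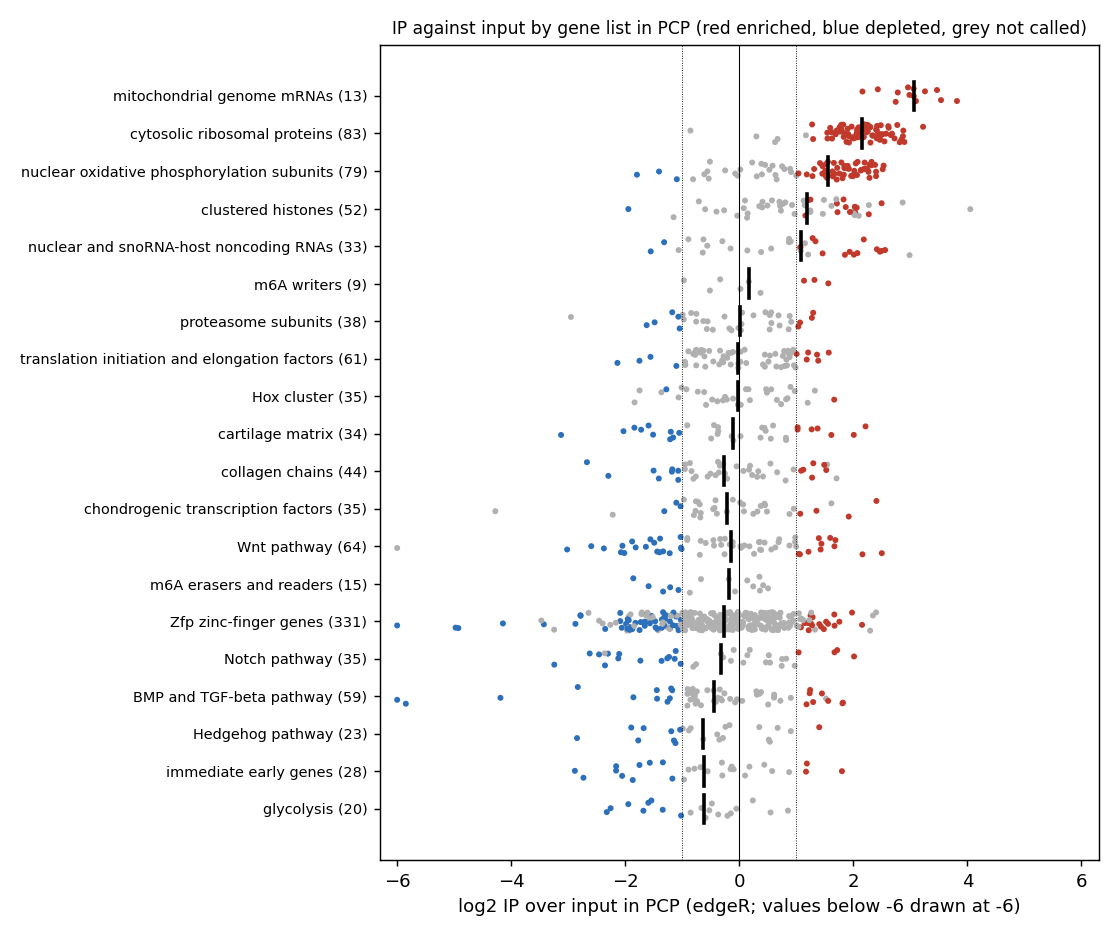
Log2 IP over input in PCP (horizontal axis, dotted lines at 1 and -1) of each tested member of 20 gene lists, with the number tested in parentheses and a black bar at the median. Red points are enriched, blue depleted, grey not called, and values below -6 are drawn at -6. Mitochondrial mRNAs (median 3.06) and ribosomal proteins (2.16) lie to the right, glycolysis (-0.63) to the left.

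Glycolysis had 8 of 20 members depleted and none enriched, with a median of -0.63 beside -0.12 for all genes. The depleted share of 40.0% compares with 16.7% of all genes and 20.6% of those with at least 20 counts in each input. The list's median transcript length was 2837 bases and its median GC 53.8%. Of coding genes of 1973 to 3059 bases and 50.6% to 55.2% GC, 39.4% were depleted, a share near that of the list. Pfkl, the liver phosphofructokinase, was at 46.5 and 125 CPM in the input and 13.7 and 16.9 CPM in the IP, a log2 ratio of -2.32 ± 0.28. Pfkfb3 and Pfkfb4, which set the level of its activator fructose 2,6-bisphosphate, gave -1.95 and -2.26. Pkm, pyruvate kinase, had 757 and 813 CPM against 255 and 234 CPM, a log2 ratio of -1.68 ± 0.13, with both IP values far below both inputs. Hk1, Eno2, Pgam1 and Eno1 were depleted too, between -1.59 and -1.02. Gapdh at 0.55, Aldoa at -0.05 and Tpi1 at -0.15 did not pass.

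Immediate early genes, which cells switch on within minutes of a stimulus, had 10 of 28 depleted (35.7%, beside 16.7% of all genes) and 3 enriched (10.7%, near the 10.5% of all genes). The depleted share was 20.6% among genes with at least 20 counts in each input. It was 39.4% among coding genes of 1973 to 3059 bases and 50.6% to 55.2% GC, where this list's medians lie. Junb held 3314 and 1942 CPM in the input and 361 and 328 CPM in the IP, a log2 ratio of -2.88 ± 0.15 (adjusted p = 6.1e-06). Ier2 had 2328 and 1331 CPM against 478 and 325 CPM. Myc was at -2.05, Jun at -1.87, Nr4a1 at -1.75 and Dusp1 at -1.57. Nr4a3 at 1.80, Ier5 at 1.19 and Ctgf at 1.17 were enriched, and Fos at -0.30 and Egr1 at -0.68 did not pass. So members of the same family, such as Nr4a1 and Nr4a3, stood on opposite sides.

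Matrix genes were split. In the cartilage matrix list 7 of 34 were enriched (20.6%, beside 10.5% of all genes) and 10 depleted (29.4%, beside 16.7%). Genes with at least 20 counts in each input were enriched in 10.5% and depleted in 20.6% of cases. Coding genes in the class of this list's median length and GC were enriched in 2.76% and depleted in 39.4%. Mgp, the matrix Gla protein that restrains calcification, had 2008 and 999 CPM in the IP and 470 and 198 CPM in the input, a log2 ratio of 2.21 ± 0.12. Snorc, a chondrocyte proteoglycan listed under the older symbol 3110079O15Rik, had 176 and 184 CPM against 46.7 and 42.7 CPM, a log2 ratio of 2.01. Prg4, lubricin, was at 1.27 and Epyc, epiphycan, at 1.37. Matn4, a matrilin, had 113 and 119 CPM in the input and 13.5 and 13.0 CPM in the IP, a log2 ratio of -3.13 ± 0.19. Cilp2 was at -2.03 ± 0.16 and Comp at -1.59 ± 0.11. Acan, aggrecan, had 564 and 618 CPM against 372 and 508 CPM (log2 ratio 0.44 ± 0.13) and was not called.

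Collagen chains had 6 of 44 enriched (13.6%) and 8 depleted (18.2%), shares near the 10.5% and 16.7% of all genes. Col2a1, the main collagen of cartilage, had 7175 and 6685 CPM in the IP and 14376 and 17009 CPM in the input, a log2 ratio of -1.17 ± 0.09. Col9a2 and Col9a3, chains of the collagen that decorates type II fibrils, were at -2.30 and -1.41, and Col8a2 at -2.67 ± 0.15. Col10a1, the collagen of hypertrophic chondrocytes, was enriched at 1.53 ± 0.26 on 607 and 452 input counts. Col27a1 (1.49) and Col6a3 (1.12) were enriched as well, while Col6a1 was at -1.18. The 44 chains made 13.8% and 11.7% of IP counts and 17.3% and 16.1% of input counts.

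Among osteoblast markers Bglap, osteocalcin, was enriched at 2.16, with 82.2% of its 25-base words in other transcripts. Dmp1 (-2.54), Sp7 (-1.59) and Alpl (-1.35) were depleted, and Col1a1 at -0.36 did not pass. Hba-a1 and Hbb-bs, the globins of red cells, were enriched at 2.13 and 1.97, with IP values of 229 and 140 CPM for Hba-a1 against 51.9 and 32.6 CPM, although 73.5% of its 25-base words stand in other transcripts. The neutrophil gene S100a8 was at 3.00 and 40.4 CPM in the IP and 0.457 and 6.35 CPM in the input, a log2 ratio of 2.68, and it was higher in replicate 2 of both assays. The part of other cells in these values was not tested.

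The signalling lists are read against the 16.7% depleted and 10.5% enriched of all genes. Nearly all members had at least 20 counts in each input, and of such genes 20.6% were depleted and 10.5% enriched. The Hedgehog list had a median length of 4451 bases and a median GC of 55.8%. Of coding genes of 3059 to 4570 bases and over 55.2% GC, 50.3% were depleted, more than in that list. In the Hedgehog pathway 8 of 23 were depleted (34.8%, 5 of them at an adjusted p under 0.05) and 1 enriched, with a median of -0.63. The ligand Ihh rested on 94 and 97 input counts (log2 ratio -2.85 ± 1.13, adjusted p = 0.088). Of the inhibitors, Sufu was at 19.3 and 16.2 CPM in the input and 8.37 and 3.12 CPM in the IP (-1.77 ± 0.39), and Spop, which directs Gli proteins to degradation, at 208 and 198 CPM against 71.3 and 56.6 CPM (-1.68 ± 0.16). The transducer Smo (-1.19), the coreceptor Boc (-1.15) and Kif7 (-1.12) were depleted. The effector Gli1 had 29.5 and 26.9 CPM in the input and 16.5 and 14.7 CPM in the IP. Its log2 ratio of -0.85 ± 0.25 (adjusted p = 0.030) was below 0 but above -1. Ptch1 (0.90), Gli2 (0.52) and Gli3 (0.54) did not pass, and Glis2 (1.40) was enriched.

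In the Notch pathway 14 of 35 were depleted (40.0%, 10 of them at an adjusted p under 0.05) and 4 enriched (11.4%, near the share of all genes). Of coding genes of 3059 to 4570 bases and 50.6% to 55.2% GC, where this list's medians lie, 38.8% were depleted. The ligand Dll1 was at -2.30, the receptor Notch4 at -2.46 and the fringe enzymes Lfng, Mfng and Rfng, which add sugars to Notch, at -2.62, -2.35 and -2.12. Notch2 (1.67), the ligase Mib1 (1.72) and Psenen (2.01), the smallest subunit of γ-secretase, were enriched. Ncstn (-1.73), a larger subunit of the same enzyme, was depleted. Notch1 at 0.07 and Rbpj at 0.14 did not pass.

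In the Wnt pathway 19 of 64 were depleted (29.7%) and 11 enriched (17.2%). The medians of this list lie in the same class of length and GC as those of Notch, with 38.8% depleted. Of the ligands, Wnt9a (-2.60), Wnt7b (-2.37), Wnt11 (-2.05) and Wnt5b (-1.56) were depleted and Wnt4 (1.21) was enriched. Of the receptors, Fzd9 had 56.2 and 74.5 CPM in the input and 8.10 and 7.86 CPM in the IP (-3.02 ± 0.24), and Fzd1 was at -1.82. Fzd8 (2.50) and Fzd2 (1.67), in contrast, were enriched. The ligand binders Sfrp1 (-1.01), Sfrp2 (-1.44) and Sfrp4 (-1.40) were depleted. Apc (1.43) and Tcf7l1 (2.16) of the intracellular pathway were enriched, Dvl2 (-2.02) and Dvl3 (-1.02) depleted.

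In the BMP and TGF-beta pathway 11 of 59 were depleted (18.6%, 7 of them at an adjusted p under 0.05) and 8 enriched (13.6%), shares near those of all genes. The ligands Gdf5, an early gene of joints, and Gdf6 had 24 or fewer counts in each IP library against 82 to 315 in the inputs, with log2 ratios of -4.19 ± 1.13 and -5.85 ± 1.48. Ltbp4, which anchors latent TGF-beta in the matrix, had 769 and 714 CPM in the input and 129 and 83.8 CPM in the IP (-2.83 ± 0.16). The receptor Bmpr2 (1.82), the Smad proteins Smad4 (1.81) and Smad7 (1.23) and the repressors Ski (1.56) and Skil (1.18) were enriched. The receptor Bmpr1b (-1.18) was depleted. For FGF and PTHrP signalling 7 of 28 were depleted (25%, beside 20.6% of genes with at least 20 counts in each input) and 4 enriched (14.3%). Fgfr1 (-1.50), Fgfr2 (-1.29) and Fgfr3 (-1.20) were on the depleted side. The antagonist Spry2 was enriched, at 1579 and 1721 CPM in the IP and 447 and 444 CPM in the input (1.89 ± 0.11).

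Transcription factors of chondrogenesis were mostly not called: 4 of 35 were enriched (11.4%) and 3 depleted (8.57%), beside 10.5% and 16.7% of all genes. Foxc1 was at 56.5 and 49.3 CPM in the IP and 9.45 and 10.5 CPM in the input (2.41 ± 0.24), Twist1 at 1.92, Nfia at 1.35 and Arid5b at 1.07. Sox9, the master factor of cartilage, had 830 and 1467 CPM in the IP and 1596 and 2301 CPM in the input (-0.80 ± 0.11, adjusted p = 0.00051), which is below 0 but within the limit.

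The genes of the m6A machinery themselves were also measured, and their counts stand beside 10.5% enriched and 16.7% depleted of all genes. Of 9 writers 3 were enriched: Wtap, at 251 and 269 CPM in the IP and 105 and 73.6 CPM in the input (1.56 ± 0.18), Mettl14 at 1.32 ± 0.31 and Rbm15 at 1.14 ± 0.21. Mettl3 rested on 344 and 621 input counts and gave -0.97 ± 0.39 (adjusted p = 0.091). Of 15 erasers and readers 5 were depleted and none was enriched. The demethylase Fto had 184 and 180 CPM in the input and 51.3 and 49.2 CPM in the IP (-1.86 ± 0.16), with 2 close values in each assay, while the demethylase Alkbh5 gave 0.35. The reader Ythdf3 was at -1.59, whereas Ythdf1 (0.24) and Ythdf2 (-0.07) did not pass. Fem1b, the substrate receptor of the Cul2 ligase that the study follows in SSC, had 32.4 and 31.2 CPM in the IP and 47.1 and 58.5 CPM in the input (-0.72 ± 0.21, adjusted p = 0.027) and was not called. Among other genes of Cul2 ligases, Cul2 (-1.50) and the receptor Vhl (-1.86) were depleted, and elongin B (Tceb2, 2.12) and Rbx1 (1.44) were enriched.

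In the list of nuclear and snoRNA-host RNAs 13 of 33 were enriched (39.4%, beside 10.5% of all genes) and 2 depleted, with a median of 1.07. H19, an imprinted RNA, had 2688 and 2211 CPM in the IP and 387 and 443 CPM in the input (2.56 ± 0.13). The snoRNA hosts Snhg8, Snhg12, Snhg1 and Gas5 had log2 ratios between 1.85 and 2.50. Malat1 (1.46) was enriched, Tug1 (-1.55) depleted, and Neat1 (-0.63) and Meg3 (-0.56) did not pass. By GENCODE type, with at least 20 counts in each input, lincRNAs had a median of 0.46 (n = 208), processed pseudogenes 0.45 (n = 216) and TEC entries, transcripts still to be checked by experiment, 0.56 (n = 287), against -0.34 for protein-coding genes (n = 13147). Clustered histone genes, whose mRNAs end without a poly(A) tail, had 14 of 52 enriched, 9 of them at an adjusted p under 0.05, and 1 depleted. As 33 of the 52 had at least 20 counts in each input and the others could enter through their IP counts, nothing is read from that count. Hist1h4d was at 203 and 136 CPM in the IP and 39.2 and 30.3 CPM in the input (2.27 ± 0.17). Histone copies are alike, and 93.4% of the 25-base words of Hist1h2ap (2.06) stand in other transcripts.

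Genes with hardly any input counts were kept apart. A gene low in input could enter the test through its IP counts alone, which favours a high ratio. No count of such genes is therefore evidence of enrichment. Of 3527 tested genes with fewer than 20 counts in an input library, 364 were enriched and 10 depleted. Of the 364, 85 had at most 3 counts in both inputs and 42 had none there. The enriched ones made 10.3% of this class, and 134 of the 364 had an adjusted p under 0.05. Predicted gene names made up 237 of them, and 118 were protein coding. In 29 the CPM of IP 2 was at least 4 times that of IP 1, and in 31 the reverse held. The 6 with most IP counts were Gm13339, Stfa1, Gm11168, Gm10722, Jdp2 and Gm37570. Gm13339 had 606 and 111 IP counts against 31 and 19, and 37.9% of its 25-base words stand in a mitochondrial transcript. Gm11168 had 37 and 650 IP counts against 13 and 205, and Gm10722 had 40 and 610 against 13 and 169. These 2 share most of their sequence with other predicted genes. Stfa1, a stefin with near copies, had 55 and 635 IP counts against 4 and 197, and Gm37570 had 326 and 54 against 66 and 19. Jdp2, a repressor of AP-1, had closer IP counts than the other 5, at 253 and 220 against 19 and 7 (log2 ratio 5.31 ± 0.61).

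The IP ratio of PCP was then set against the mean ratio of the 7 other WT populations in a fit of all 32 WT libraries. Of 25365 genes tested, 2 were higher in PCP (0.00788%) and 19 lower (0.0749%) at an adjusted p under 0.05. At an unadjusted p under 0.05, 259 were higher and 760 lower. The fixed rule took the higher genes past the adjusted p first and filled up with Ch25h, Cdx1, Prkcq and Ephx3. These had larger differences, 4.76 to 5.30, but adjusted p of 0.75 or more. The split of higher and lower depended on the processing: it was 22 and 11 with DESeq2, 6 and 5 with DESeq2's size factors in edgeR, and 12 and 18 with no filter on low counts. DESeq2's size factors move the median difference of all genes from -0.00057 to 0.15, so differences of that size depend on the scaling. Rn18s-rs5 was higher by 1.23 ± 0.25, yet 6C3 had a pair above both PCP pairs. Angptl7, an angiopoietin-like protein, was higher by 1.51 ± 0.35 (adjusted p = 0.048), and in all 14 pairs of other populations its ratio lay below both PCP pairs, -1.48 and -0.53. Map9, a microtubule-associated protein, was lower by 1.99 on the log2 scale ± 0.37 (adjusted p = 0.012). Its PCP pairs stood at -2.08 and -1.53, below all 14 others, which ran from -0.55 to 1.18. Map9 (chr3:82358044-82395268, GRCm38) held 2.23 and 3.95 CPM in the PCP IP and 9.38 and 10.2 CPM in the input.

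Sesn2, Chadl, Eif3b, Jund and Itgb5 completed the lowest 6 among genes at an adjusted p under 0.05. Eif3b, a subunit of the initiation factor eIF3, had pairs of -1.85 and -2.64 in PCP, and 10 of 14 other pairs lay above both. Chadl, a chondroadherin-like matrix protein, had -1.23 and -2.42, and 11 of 14 other pairs lay above both. Mean ratios of Chadl ran from -1.99 to -0.92 in THY, BLSP, 6C3 and HEC and from 1.23 to 1.42 in SSC, pBCSP and BCSP. Those of Eif3b ran from -2.02 to -1.25 and from 0.32 to 0.65, so in both genes PCP lay on the side of the downstream populations. Sesn2 had -6.48 and -2.48, where the first value rests on 6 IP counts. For Itgb5 the PCP pairs were 0.26 and -1.98, so its replicates differed by more than PCP did from the mean of the others. Jund, an AP-1 subunit, had 1.44 and 0.08, against 0.74 to 3.47 elsewhere. Among the other lower genes were Col2a1 (-0.69 ± 0.15), Col3a1 (-0.75 ± 0.17), Fgfr1 (-1.02 ± 0.21), Gpc1 (-1.07 ± 0.23) and Sdc3 (-1.11 ± 0.22), which code for matrix, receptor and proteoglycan proteins and had ratios below 0 in both PCP pairs. In these 5 genes PCP lay closer to the downstream populations than to SSC, pBCSP and BCSP. Gpc1 had a mean of -3.30 in PCP, -3.20 in BLSP and -3.16 in THY against -1.23 to -1.21 in SSC, pBCSP and BCSP. Sdc3 had -2.46 in PCP and -2.33 in 6C3 against -0.62 to 0.16. When the pairs were not taken as blocks, 0 genes passed in edgeR (831 at an unadjusted p under 0.05). DESeq2 called 33, of which 5 were among the 21, and 3 genes passed against the 4 downstream populations alone.

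**Figure D4:**
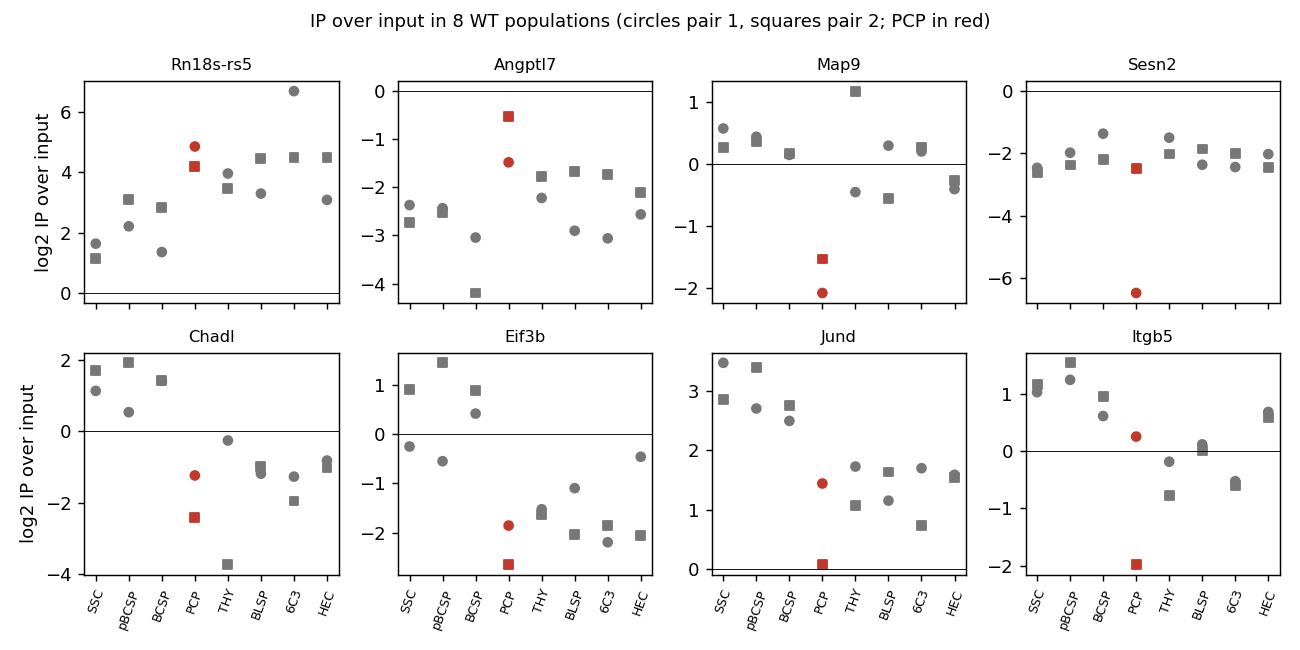
Log2 IP over input (vertical axis) in the 8 WT populations (horizontal axis) for 8 genes past an adjusted p of 0.05 (the 2 higher in PCP and the 6 lowest), with circles for pair 1, squares for pair 2 and PCP in red. Map9 in PCP, at -2.08 and -1.53, lies below every other pair, while in 6C3 the values of Chadl (-1.27 and -1.95) and Eif3b (-2.19 and -1.85) reach those of PCP.

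The gene lists were set against the other populations as well, as values. The ribosomal protein median of 2.16 in PCP compared with 1.20 to 2.19 in the other 7, and that of respiratory subunits, 1.56, with 0.81 to 1.64. Glycolysis at -0.63 lay inside -1.07 to -0.51, and immediate early genes at -0.62 inside -0.67 to -0.23. The Hedgehog median of -0.63 lay below the range of -0.60 to 0.07, and that of the BMP and TGF-beta pathway, -0.44, below -0.32 to 0.17. The nearest populations were 6C3 (-0.60) for Hedgehog and THY (-0.32) for the other list. Under other settings the PCP medians ran from -0.81 to -0.43 and from -0.61 to -0.24. These spans reach into the ranges above, so nothing particular to PCP is read from them. No member of either pathway list passed the test of the difference. Collagen chains (-0.27 against -0.19 to 0.22) included Col2a1 and Col3a1, which did.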

How the data were processed

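RNA of sorted WT cells was immunoprecipitated with an m6A antibody without fragmentation (SLIM-seq), amplified, and sequenced beside its input. The authors deposited counts per gene (fastp 0.20.1, HISAT2 2.2.1, featureCounts 2.0.1, GRCm38); the annotation release and strand setting are not given in the sources used here. Tables of the authors' own comparisons (fold changes and p-values) were not used. Of 46959 entries, 128 named as dates were left out (at most 0.390% of a library).

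edgeR 4.0.16 (R 4.3.3) quasi-likelihood tests with TMM scaling and filterByExpr compared the 2 IP with the 2 input libraries, with replicate number as a block (1 residual degree of freedom) and Benjamini-Hochberg adjustment. Cells of one sort were divided between both assays, and the replicate differences of IP and input correlated at 0.266 over 18564 genes. The fit across 32 WT libraries had 8 residual degrees of freedom. Tests were checked on simulated counts: for PCP IP against input (16681 genes), 92% of genes changed 4-fold and 70% of those changed 2-fold were recovered at an unadjusted p under 0.05, 68% and 41% at an adjusted p, and 404 unchanged genes were called by the unadjusted rule. For PCP against other populations (23284 genes), 50% and 9% were recovered at an adjusted p. In both checks the changes were placed only in genes with higher mean counts. Recovery among genes with few counts was not measured. Values are CPM over named genes.

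Genes named were the 12 highest and 12 lowest at an adjusted p under 0.05 with at least 20 counts in each input, agreement of both pairs and no predicted name, then 6 low-input genes, up to 4 called members of each list, 6 genes asked for, and the 6 highest and lowest differences from other populations. Some list members are not reported here. Other genes named are list members or were chosen after their values were seen. The members and lists were chosen with earlier results of these data known. Transcript features came from GENCODE vM21, matched for 17914 genes tested. Alternatives covered the block, scaling, filter, tool, libraries and mitochondrial genes.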

Additional observations from a re-analysis of the deposited data

Results flagged for a closer look

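The ratio of IP to input in PCP differed from the mean of the 7 other WT populations by a test of the difference itself (edgeR, adjusted p under 0.05) for 21 genes, of which the 2 higher and the 6 lowest are given here. Higher in PCP were Angptl7 by 1.51 and Rn18s-rs5 by 1.23 on the log2 scale. Lower in PCP were Map9 at -1.99, Sesn2 at -1.78, Chadl at -1.64, Eif3b at -1.53, Jund at -1.30 and Itgb5 at -1.28. For Itgb5, Sesn2 and Jund the 2 PCP pairs differed by more than this difference. For Chadl and Eif3b the mean ratio was also below 0 in THY, BLSP, 6C3 and HEC, and above 0 in SSC, pBCSP and BCSP. The IP and input groups of 2 libraries each were too small for a search for single outlying libraries.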

How the results depend on the processing

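The count of enriched genes was 1950, against 1214 when all 32 WT libraries shared one fit and 1088 to 1093 without one PCP replicate. Those with hardly any input counts went from 364 to 108 in the fit of 32 libraries, to 28 to 47 without one replicate, and to 134 at an adjusted p. Without the replicate block 1963 were enriched and 2698 depleted, but at an adjusted p 876 and 1369 against 1498 and 2658. The 21 differences from other populations became 0 without the replicate block, 33 with DESeq2, 11 with DESeq2's size factors, 8 with library size alone, 0 with at least 20 counts in every input library (662 at an unadjusted p), 35 without mitochondrial genes, 35 also without rRNA (chosen after seeing the data), 3 against the 4 downstream populations, 21 to 32 without one replicate, and 1019 at an unadjusted p. Of 30 list medians, 19 kept their sign under every setting run. Among 177 named genes, 1828 of 1922 values kept direction and call, 91 lost the call, 3 gained it and 0 reversed. With 2 pairs, and 1 sample a group where a replicate was left out, the lone sample was assumed to vary like the other populations. The fits without a replicate also took in the other WT libraries, so 2 choices changed at once and 1214 is the nearer comparison for enriched genes. The differences from other populations called in those fits were mostly other genes than the 21. The causes were not tested.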

Other observations

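Of 38 proteasome genes 4 were enriched (10.5%) and 5 depleted (13.2%), beside 10.5% and 16.7% of all genes, and 29 were not called. The enriched ones code for core subunits (Psmb2 at 1.30, Psmb3 at 1.27, Psma7 at 1.07 and Psma6 at 1.04), and the depleted ones for the cap subunits Psmd3 (-1.62), Psmd2 (-1.48), Psmd13 (-1.18) and Psmd4 (-1.05) and for Psmd5 (-1.07), a chaperone of cap assembly. Core and cap members among the 29 were not counted, so no split is read. Psmb2 and Psmb3 have transcripts of 859 and 766 bases, Psmd3 and Psmd2 of 2148 and 2961. Other transcripts hold 63.6% of the 25-base words of Psmb3 and 47.2% of those of Psmd2. Translation initiation and elongation factors had a median of -0.02, with 6 of 61 enriched (9.84%) and 4 depleted (6.56%). Eif3f had 153 and 115 CPM in the IP and 55.4 and 35.8 CPM in the input, a log2 ratio of 1.57, while Eif4h had 103 and 116 CPM against 386 and 351 CPM, a log2 ratio of -1.75.

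Histone lysine methyltransferases and demethylases had 9 of 56 enriched (16.1%) and 10 depleted (17.9%), beside 10.5% and 16.7% of all genes. Setd1b was enriched at 2.13 and Kdm4b depleted at -2.93, with 6.32 and 5.76 CPM in the IP and 47.5 and 44.6 CPM in the input. Zinc-finger genes of the Zfp series had 19 of 331 enriched (5.74%) and 48 depleted (14.5%), both below the shares of all genes. In the Hox clusters 1 gene of 35 was enriched, Hoxb5 at 1.66, and 1 depleted, Hoxd9 at -1.28, which is 2.86% in each direction.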
